A study of Mus musculus with 6 samples.

Results

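The neurotrophins and their receptors were followed in injured carotid arteries of mice that overexpress interferon regulatory factor 9 (IRF9) in smooth muscle cells (SMCs). The family holds 7 genes: the ligands Bdnf (brain-derived neurotrophic factor), Ntf3 (neurotrophin 3) and Ntf5 (neurotrophin 4/5), the tyrosine kinase receptors Ntrk2 (TrkB) and Ntrk3 (TrkC), the low-affinity receptor Ngfr (p75) and the sorting receptor Sort1 (sortilin). The genes were chosen by family membership after the rise of Bdnf in these same arrays was known, so the differences between groups are a description and are not independent evidence. Of the 7 genes, 6 were measured, by 25 of 45037 tested probe sets, among 18193 genes that have a probe set of their own. Ntf3 is not analysed here, since no probe set is assigned to it alone in the annotation table used.

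Neurotrophins are made as precursors, which proteases cleave to the mature growth factors. The mature proteins bind Trk receptors, with BDNF and neurotrophin 4/5 preferring TrkB and neurotrophin 3 preferring TrkC, whereas the uncleaved precursors bind p75 together with sortilin. The family is best known for the survival and growth of neurons, and BDNF and TrkB are also made by cells of the vessel wall.

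NTG mice (non-transgenic controls) were compared with SMC-IRF9-TG mice, both labelled C57BL/6 (C57BL/6J in the methods), and the carotid arteries of both groups were taken 14 days after wire injury, an operation that strips the endothelium and starts neointima formation. The transgene was the full-length mouse Irf9 cDNA with an HA tag, driven by the SM22α promoter, which is active mainly in smooth muscle, and the methods describe male mice of 10 to 12 weeks. There were 3 arrays per group, each made from 400 ng of RNA of a pool of 3 to 5 vessels. An uninjured group is not analysed here, and the labels give neither the transgenic line nor the animals of each pool, so a p-value here reflects only how the pools scatter, which may be technical. The values are log2 levels of probe sets, the groups of short probes on an Affymetrix array that read 1 transcript or several of a gene, and 1 log2 unit is a 2-fold change.

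The 6 arrays were not alike in quality. Irf9, read by probe set 1421322_a_at, was at 4.75, 5.43 and 5.36 in NTG against 5.46, 5.41 and 5.58 in SMC-IRF9-TG pools, a difference of 0.30 (SE 0.23) whose 95% interval from -0.22 to 0.83 includes 0. Whether this probe set lies in the transgene's cDNA is not known here, so it does not check the labels. The level of Xist, which female cells transcribe from the silenced X chromosome, was 9.94 in NTG pool 1 and 9.50 in NTG pool 2. It was between 2.94 and 4.08 on the remaining arrays, although male mice are described. High Xist was thus seen only in NTG pools, so genotype may be mixed with sex in every group difference. These cannot be fully told apart here. NTG pool 2 had the largest distance between the 3′ and 5′ probe sets of Actb (7.09 against 1.56 to 3.04 log2 units elsewhere), a measure of RNA integrity, and SMC-IRF9-TG pools 1 and 2 had the lowest mean of the spiked poly-A controls (4.97 and 4.54 against 7.39 to 11.69). The smooth muscle markers, Acta2 among them, had a summed level (log2 of the summed linear levels) of 14.36 to 14.77 over the 6 pools. Acta2, which weighs much in this sum, was at a mean of 13.42 in NTG and 13.56 in SMC-IRF9-TG.

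Bdnf was the only member called, and its promoters are therefore shown first. Mouse Bdnf is read from several start sites, and the RefSeq promoter table (GRCm38.p6) holds 7 windows for it on chromosome 2, all on the plus strand. Each window runs from 250 bases upstream to 50 bases downstream of a start. Both strands of every window were searched for 3 motifs by exact letters. The core of the interferon-stimulated response element, which IRF proteins bind, was GAAA, any pair of bases, GAAA. The AP-1 pattern was TGANTCA with any base at N, so A or T there also counts. The cyclic AMP response element was the full TGACGTCA, and its shorter or variant forms were not searched. These motifs do not overlap in the windows shown. The response element core was found in 1 of the 7 Bdnf windows and in 3.44% of all 32851 windows in the table. The AP-1 pattern was matched in another 1 of the 7, as TGAATCA with A at N, and in 7.81% of all windows. The full cyclic AMP element was in 0 of the 7, and in 1.79% of all windows, which does not exclude a variant form in Bdnf. The upstream bases of both windows with a match follow, with the matched letters in capitals (the response element core reads on the minus strand, so it appears as its reverse complement). The first lies at chr2:109676782-109677031, with its AP-1 letters starting at -152 from the start site, and the second at chr2:109692777-109693026, with the response element core starting at -238.
Bdnf window 2: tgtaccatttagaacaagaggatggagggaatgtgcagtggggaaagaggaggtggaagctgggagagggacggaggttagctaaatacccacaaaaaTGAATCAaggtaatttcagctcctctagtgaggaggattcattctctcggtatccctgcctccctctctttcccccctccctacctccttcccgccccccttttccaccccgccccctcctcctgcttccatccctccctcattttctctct
Bdnf window 4: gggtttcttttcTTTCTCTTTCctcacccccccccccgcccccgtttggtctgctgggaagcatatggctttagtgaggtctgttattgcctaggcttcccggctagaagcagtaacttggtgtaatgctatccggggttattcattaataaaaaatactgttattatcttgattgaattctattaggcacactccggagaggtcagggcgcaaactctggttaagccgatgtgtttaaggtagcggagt
No window of Ntrk2 (1), Ngfr (1) or Ntf3 (2) held any of these motifs, and the table has none for Ntf5, Ntrk3 and Sort1. A match is a run of letters and not a measured binding site, and the arrays do not show which Bdnf start was used.

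Bdnf was higher in the SMC-IRF9-TG arteries by both of its probe sets. Probe set 1422168_a_at read 3.44, 3.27 and 3.42 in NTG pools 1, 2 and 3, against 6.47, 5.72 and 6.02 in SMC-IRF9-TG pools 1, 2 and 3 (this order holds for all later values). The means were 3.38 ± 0.10 and 6.07 ± 0.38 (SD, n = 3 pools each). The NTG means of the Bdnf probe sets lay at percentiles 46.4 and 48.6 of all probe sets. Detection was not checked at such levels, so the folds given for Bdnf are approximate. The lowest SMC-IRF9-TG pool lay 2.28 log2 units above the highest NTG pool, which is 4.84-fold, and the groups did not overlap.

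The fitted log2 difference was 2.69 (SE 0.23, 95% interval 2.17 to 3.22), or 6.48-fold. Counted down from the largest rise, its place was 144 among 45037 probe sets. Its adjusted p in the limma fit over all probe sets was 0.00148. It was 0.0952 by the test that the methods name and 0.0654 with a term for SMC-IRF9-TG pools 1 and 2, so the call was lost there with differences of 2.69 and 2.65. The other probe set, 1422169_a_at, read 3.44, 3.54 and 3.43 in NTG against 4.61, 4.27 and 4.59 in SMC-IRF9-TG pools. It showed the same direction with a smaller step, and its groups did not overlap either. Its difference was 1.02 (SE 0.19, 95% interval 0.59 to 1.45), or 2.03-fold, with a limma adjusted p of 0.0312. The steps of these probe sets were not tested against each other. The smaller of these calls depended on single arrays: it was lost without NTG pool 1 (adjusted p = 0.0803) and without SMC-IRF9-TG pool 1, 2 or 3 (0.158, 0.084 and 0.148, limma), with a difference that stayed between 0.96 and 1.13. Over the 6 arrays both probe sets went together (r = 0.987). This r describes the same pools and mostly reflects their shared step between the groups, so it is not a separate measurement. Within NTG, pool 2 was lowest by 1422168_a_at and highest by 1422169_a_at, whereas in SMC-IRF9-TG pool 2 was lowest by both.

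**Figure D1:**
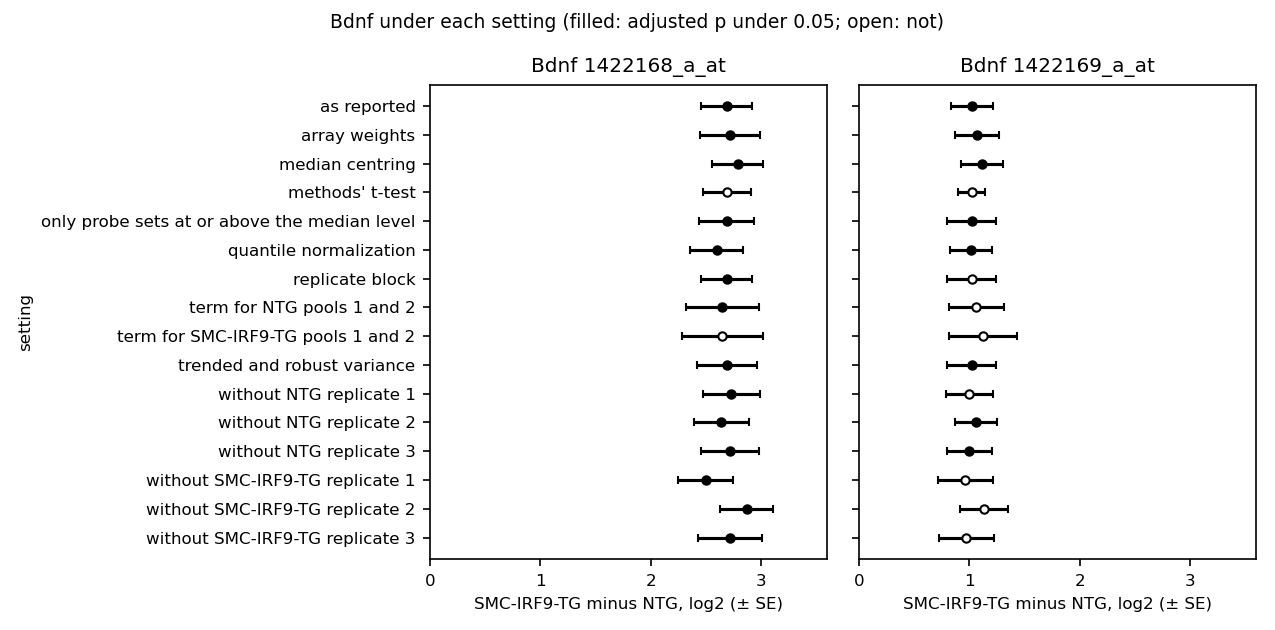
Log2 difference (SMC-IRF9-TG minus NTG, x axis, with SE) of both Bdnf probe sets under each processing setting (y axis), with filled points where the adjusted p was under 0.05. The larger probe set stays between 2.50 and 2.87 and the smaller between 0.96 and 1.13, and the smaller is called in 7 of 15 alternatives.

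Ntf5, the other ligand measured, was not called. Its only probe set, 1440353_at, read 2.45, 2.96 and 2.05 in NTG against 2.03, 2.05 and 2.15 in SMC-IRF9-TG pools, with both group means under the lower quartile of the arrays (2.33 to 2.66). The groups overlapped, and the difference was -0.41 (SE 0.25, 95% interval -0.99 to 0.16). NTG pools 1 and 2 were the higher ones: with a term for these pools the difference was 0.02. A level this low may be background, so no fold is given.

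**Figure D2:**
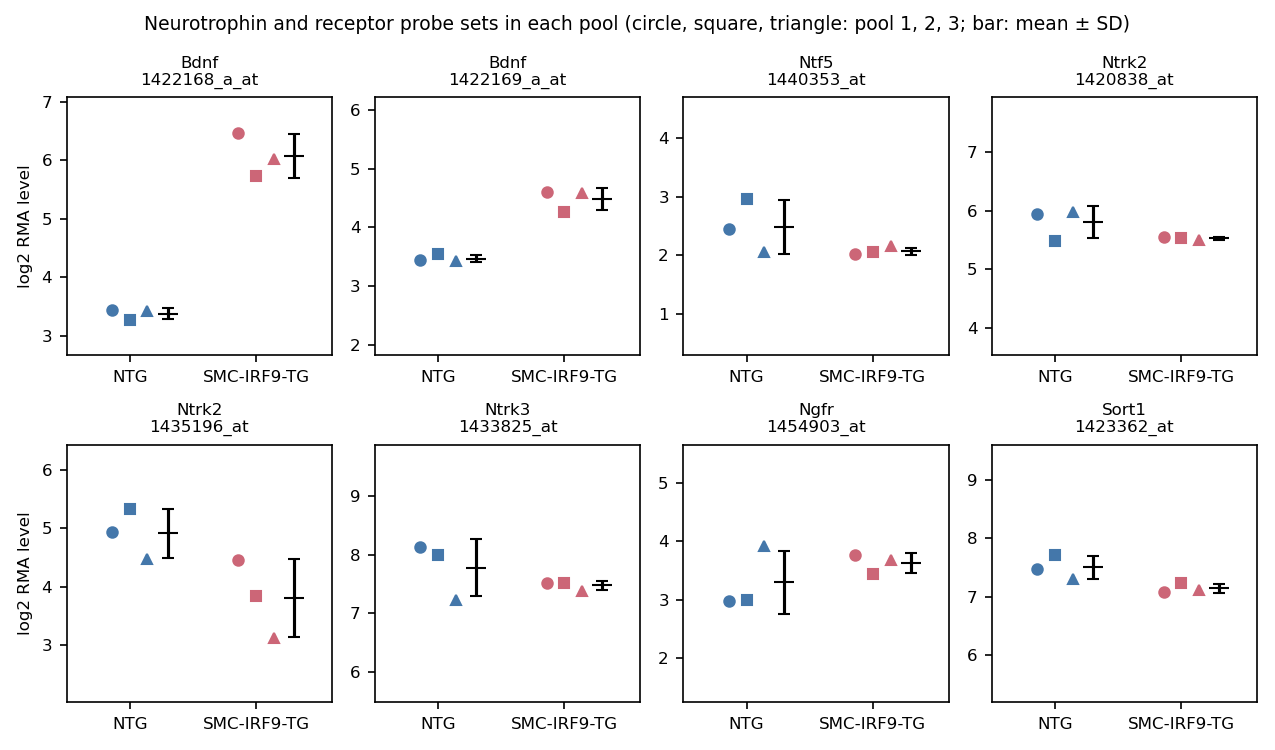
Log2 level (y axis) of 8 probe sets of the family in each of the 6 pools (circle, square and triangle for pools 1, 2 and 3), with the mean and SD of each group as bars. Bdnf 1422168_a_at separates the groups by 2.28 log2 units, and the groups overlap in the panels of Ntf5, Ntrk2 1420838_at, Ntrk3 and Ngfr.

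Ntrk2, the receptor of BDNF and neurotrophin 4/5, was not called in any of its 8 probe sets, although all 8 had a difference below 0. The differences ran from -1.10 to -0.11, with a median of -0.43, against a median of -0.13 over all 45037 probe sets. Both group means of 4 of the 8 lay under the lower quartile of the arrays. The probe set of highest level, 1420838_at, read 5.95, 5.49 and 5.98 in NTG against 5.56, 5.54 and 5.50 in SMC-IRF9-TG pools. These groups overlapped, because NTG pool 2 was as low as the transgenic pools, and the difference was -0.27 (SE 0.20, 95% interval -0.74 to 0.19, limma adjusted p = 0.43).

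The largest Ntrk2 difference was in probe set 1435196_at, at 4.93, 5.32 and 4.48 in NTG against 4.46, 3.84 and 3.13 in SMC-IRF9-TG pools. All 3 transgenic pools were below the controls, the highest of them (4.46) close to the lowest control (4.48). The difference was -1.10 (SE 0.36, 95% interval -1.91 to -0.28), with a limma p of 0.0141 that became 0.139 after adjustment, and with terms for single pairs of pools it ranged from -1.78 to -0.67. Probe set 1444121_at, which was dim in both groups (2.55, 2.62 and 1.85 against 1.69, 1.73 and 1.79), also did not overlap, and its difference was -0.60 (SE 0.24, limma adjusted p = 0.196). Without NTG pool 3 its difference was -0.85, with an adjusted p of 0.0509. Probe sets 1420837_at and 1435305_at had transgenic pools below all controls too, at differences of -0.62 and -0.42 and low levels.

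Ntrk3, the receptor of neurotrophin 3, was not called, and its 8 probe sets did not share a direction. Probe set 1433825_at read 8.14, 7.99 and 7.22 in NTG against 7.52, 7.52 and 7.39 in SMC-IRF9-TG pools, with means of 7.78 ± 0.49 and 7.48 ± 0.08 (SD, n = 3 pools each). NTG pool 3 lay below the transgenic pools and NTG pools 1 and 2 above them, so the groups overlapped and the difference was -0.31 (SE 0.26, 95% interval -0.91 to 0.29). With a term for NTG pools 1 and 2, which had the high Xist levels, the difference was 0.26.

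Among the other Ntrk3 probe sets 2 had differences above 0 and 5 below. The highest was 1425071_s_at, at 3.44, 3.61 and 3.24 against 3.40, 4.03 and 4.12, with a difference of 0.42 (SE 0.24, limma adjusted p = 0.327). Probe sets with this suffix may share probes with other genes. The lowest was 1426003_at, at 2.82, 2.61 and 3.21 against 2.55, 2.41 and 2.29, where the groups did not overlap and the difference was -0.47 (SE 0.22, limma adjusted p = 0.243). Probe sets of 1 gene therefore gave both signs, and none of the 8 was called.

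Ngfr, the p75 receptor, was dim, and 2 of its 3 probe sets had both group means under the lower quartile. The one of highest level, 1454903_at, read 2.98, 3.00 and 3.92 in NTG against 3.77, 3.44 and 3.68 in SMC-IRF9-TG pools. The third control pool was above all transgenic pools while the other two were below them, so the groups overlapped, with a difference of 0.33 (SE 0.28, 95% interval -0.31 to 0.98). It was 0.64 without NTG pool 3 and -0.28 with a term for NTG pools 1 and 2, so its sign depended on the control pools. The dim probe sets had differences of -0.29 and -0.00.

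Sort1, which binds precursor neurotrophins and sorts proteins inside cells, was not called either. Its probe set of highest level, 1423362_at, read 7.48, 7.71 and 7.31 in NTG against 7.08, 7.23 and 7.11 in SMC-IRF9-TG pools. All transgenic pools lay below all controls, by a small margin. The means were 7.50 ± 0.20 and 7.14 ± 0.08 (SD, n = 3 pools each), the difference was -0.36 (SE 0.19, 95% interval -0.80 to 0.08), and the limma adjusted p was 0.292. The remaining Sort1 probe sets, 1423363_at and 1450955_s_at, had overlapping groups, with differences of -0.17 and -0.14, and the latter was 0.28 without NTG pool 3.

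**Figure D3:**
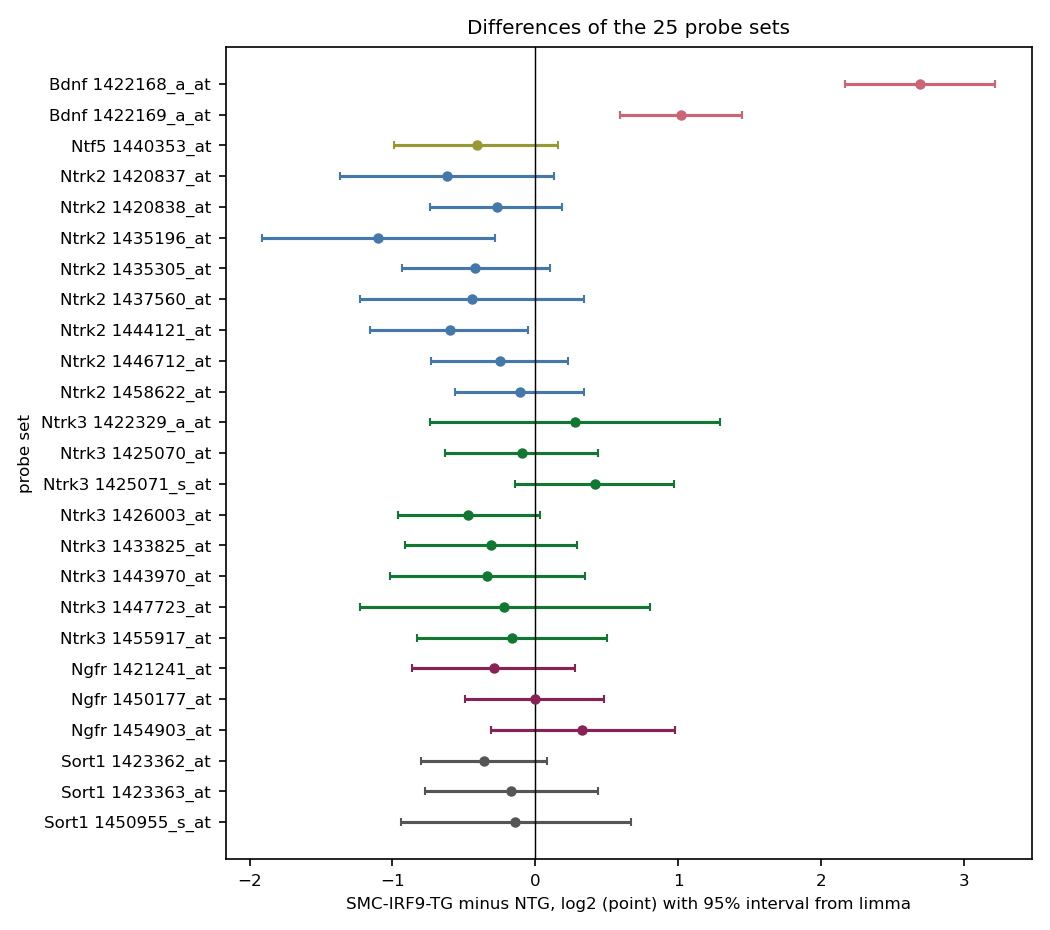
Log2 difference (SMC-IRF9-TG minus NTG, x axis) with its 95% interval for each of the 25 probe sets of the family (y axis, grouped by gene). Only the Bdnf probe sets were called, while the Ntrk2 differences all lie below 0 and those of Ntrk3 and Ngfr lie on both sides.

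Over the family, 2 of 25 probe sets were called higher, both of Bdnf, 0 were called lower and 23 were not called (limma, adjusted p under 0.05), and 4 had an unadjusted p under 0.05, as 22.3% of all probe sets did. Of all probe sets tested, 2.37% were called higher and 0.373% lower, and without NTG pool 3 the 168 lower calls became 583. The transgenic pools lay above all controls in 2 member probe sets and below them in 6, against 12.1% and 19.2% of all probe sets. The exact 2-sided permutation p of every non-overlapping probe set was 0.1, the smallest that 3 against 3 pools allow. Since the family was chosen with Bdnf in view, nothing is read from these shares. The median member difference was -0.25, and 20 of 25 were below 0, as were 27563 of 45037 over the array.

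The control pools scattered more than the transgenic ones. The SD was larger in the NTG group in 19 of 25 member probe sets and in 34201 of 45037 of all, with member medians of 0.42 in NTG and 0.11 in SMC-IRF9-TG. NTG pool 3 gave the highest of the 6 values in 10 member probe sets and the lowest of the NTG values in another 10. Both Bdnf probe sets were among the 6 with the larger SD in SMC-IRF9-TG, with a median SD of 0.08 in NTG and 0.28 in SMC-IRF9-TG.

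**Figure D4:**
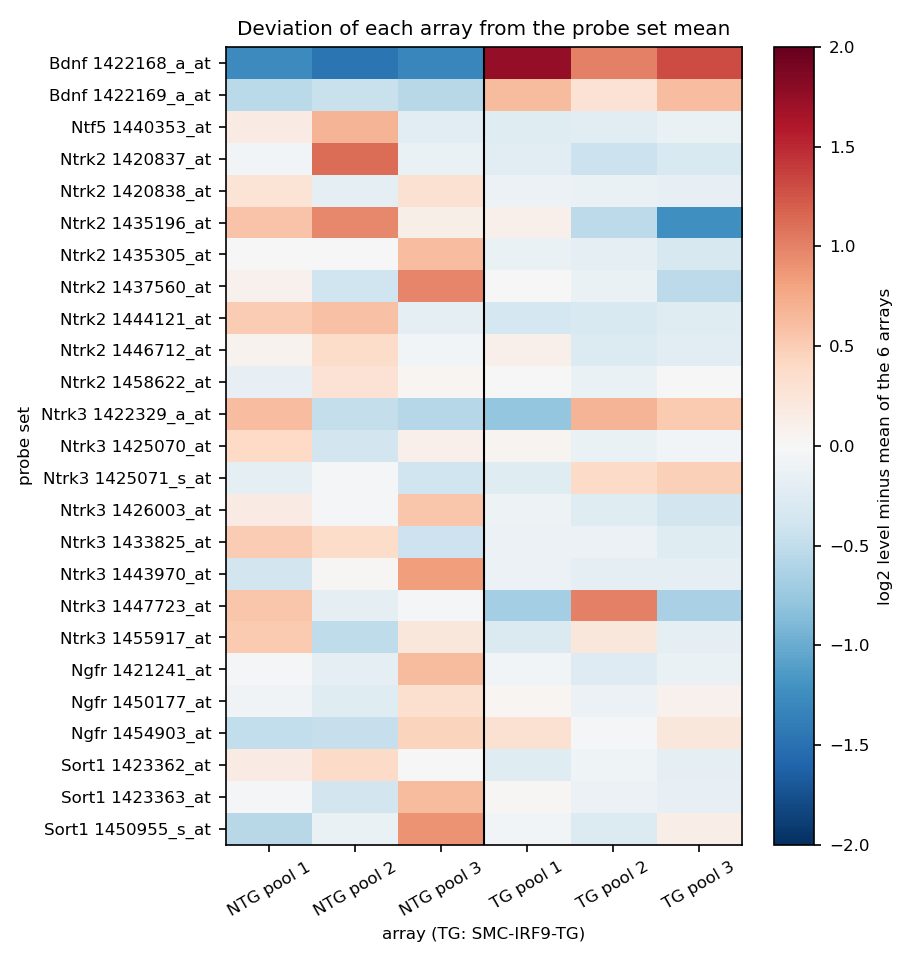
Deviation of each pool (columns) from the mean of all 6 pools for the 25 member probe sets (rows), in log2 units by colour. The Bdnf rows divide at the border between the groups, and the receptor rows vary mainly among the NTG pools.

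The pathway around the family was described from 6 lists of genes, each gene taken by its probe set of highest mean level. Of 77 measured genes of 92 listed, 3 were called higher, 0 lower and 74 not (limma, adjusted p under 0.05), and 20 had an unadjusted p under 0.05, as 24.7% of all genes did. Over all 18193 genes, 3.11% were called higher and 0.511% lower, with a median difference of -0.05. The 3 genes were Plat, Adam10 and Adam17.

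Plat, tissue plasminogen activator, starts the plasmin cascade that can cleave precursor BDNF. Its probe set 1415806_at read 5.74, 6.31 and 6.51 in NTG against 7.29, 7.35 and 7.61 in SMC-IRF9-TG pools, a difference of 1.23 (SE 0.24, limma adjusted p = 0.0387). All transgenic pools were above all controls, but another probe set of the gene gave -0.21. The call was lost under quantile normalization (0.93, adjusted p = 0.133), without NTG pool 1 (0.0796) and without SMC-IRF9-TG pool 1, 2 or 3 (0.124, 0.147 and 0.156, limma), and with the replicate number as a block the adjusted p was 0.0534. In the list of precursor processing 1 of 12 measured genes was called higher and 0 lower, and the median difference was -0.12.

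Adam17 and Adam10 are membrane proteases that shed the outer part of p75 and of many other proteins. Adam17 (1421858_at) read 5.60, 5.88 and 6.33 in NTG against 7.44, 8.24 and 8.23 in SMC-IRF9-TG pools, a difference of 2.04 (SE 0.29, limma adjusted p = 0.0114). Adam10 (1428103_at) read 6.98, 7.01 and 7.08 in NTG against 9.30, 8.75 and 8.34 in SMC-IRF9-TG pools, a difference of 1.77 (SE 0.26, limma adjusted p = 0.0125). Neither gene's groups overlapped, while further probe sets of Adam17 gave 0.62 and 0.18 and those of Adam10 gave 1.38 (called), 0.17 and -0.28. The Adam17 call was lost without SMC-IRF9-TG pool 2 or 3 (limma adjusted p = 0.0675 and 0.054), and the Adam10 call without NTG pool 1 or SMC-IRF9-TG pool 2 (0.053 and 0.0657). With terms for NTG or SMC-IRF9-TG pools 1 and 2 neither gene nor Plat was called. Adam10, Adam17 and both Bdnf probe sets stand on a list that the study drew from these samples. Their rise here is therefore not independent of it. In the p75 list 2 of 17 measured genes were called higher and 0 lower, with a median difference of 0.15.

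The remaining lists had no called gene. In Trk receptor signalling, the adaptors and kinases that act after TrkB and TrkC, 0 of 24 measured genes were called in either direction and 7 had an unadjusted p under 0.05 (24.7% over all genes), 6 of them with a difference above 0, with a list median of 0.13. Its members of highest level, Kidins220 and Ptpn11, had differences of 0.20 and 0.15, whereas other probe sets of Kidins220 ran from -0.38 to 0.18 and those of Ptpn11 gave -0.58 and -0.63. Among sortilin ligands and sorting proteins 0 of 11 were called, with a median of 0.39 and differences of 0.39 for Grn (progranulin) and 0.82 for Psap (prosaposin). Other probe sets gave 1.28 (limma adjusted p = 0.0524) and 0.44 for Grn and 2.02 (SE 0.82) for Psap. Among ligands and receptors of the GDNF family, a separate group of neurotrophic factors, 0 of 9 were called, with a median of -0.24 and differences of -0.62 for the ligand Nrtn and -0.19 for the receptor Gfra3. The related ligand and receptor genes, with 0 of 4 called, held Sorl1, a relative of sortilin.

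Sorl1 read 8.77, 9.15 and 8.32 in NTG against 7.75, 7.83 and 7.44 in SMC-IRF9-TG pools. All 3 transgenic pools lay below the controls, and the difference was -1.07 with a limma adjusted p of 0.0661. It was called lower without NTG pool 3 (-1.28, adjusted p = 0.0338), under quantile normalization (-1.35, 0.037) and with array weights (-1.07, 0.048), and over all its alternatives the adjusted p ran up to 0.488. Its other probe sets gave -0.63 and -0.10. Sorcs3, the other gene named from this list, had a difference of 0.11, and its other probe set gave -0.62.

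**Figure D5:**
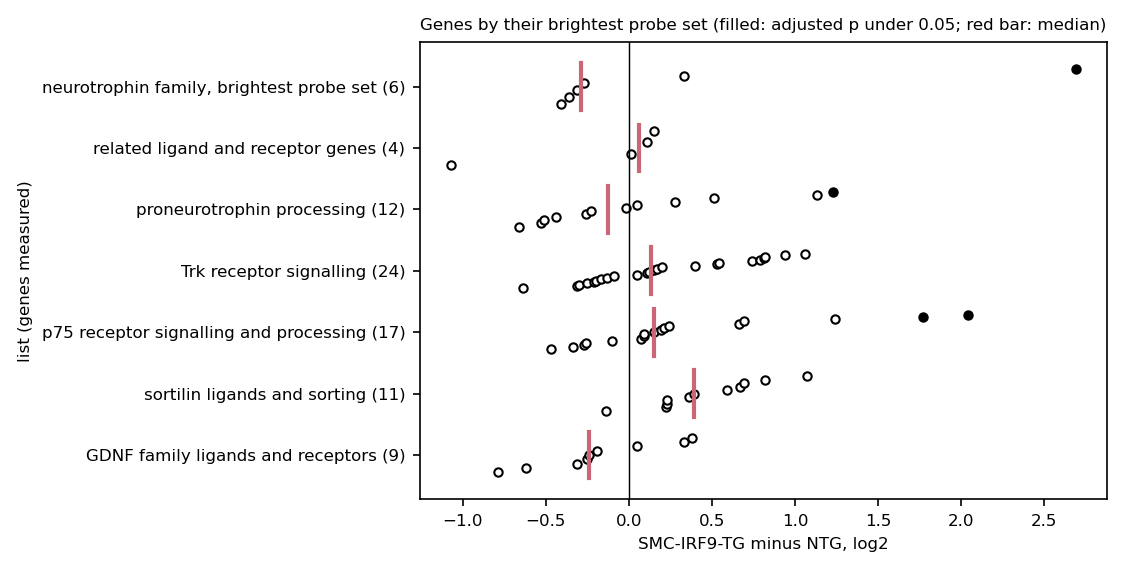
Log2 difference (SMC-IRF9-TG minus NTG, x axis) of the family members by their probe set of highest level and of each measured gene in the 6 pathway lists (y axis), 1 point per gene, filled where the adjusted p was under 0.05, with the list median as a bar. Of the pathway genes 74 are open and 3 filled, with Adam17 at 2.04, Adam10 at 1.77 and Plat at 1.23, and Bdnf at 2.69 in the row of the family.

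Because whole vessels were measured, fewer cells of a type and less RNA per cell cannot be told apart. Markers of cells that may carry the family were therefore set beside it. The summed level of a list is the log2 of its summed linear levels, so its brightest genes weigh most. Of 15 measured macrophage markers 13 were called higher, against 3.11% of all genes, with a median difference of 3.68. Their summed level was 7.83 to 8.82 in NTG and 12.23 to 12.76 in SMC-IRF9-TG. Within NTG this sum was 7.83, 8.09 and 8.82, whereas Bdnf (1422168_a_at) was 3.44, 3.27 and 3.42. Fibroblast markers were called higher in 6 of 11, with summed levels of 12.91 to 13.15 and 14.40 to 14.53. The part of either list in the Bdnf difference was not tested.

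Markers of Schwann cells and neurons, the cells in which the receptors are best known, gave 0 calls of 11 and 0 of 12. The summed Schwann level was 9.54 to 10.08 in NTG and 9.47 to 9.75 in SMC-IRF9-TG, and Sox10, a defining factor of these cells, read 4.73, 4.54 and 5.40 against 5.24, 4.65 and 4.80. The neuron markers had a summed level of 7.50 to 7.90 and 7.69 to 8.09, and 7 of the 12 had an unadjusted p under 0.05 (24.7% over all genes), 5 with a difference below 0 and 2 above. The median difference of all 12 was -0.48. Uchl1, the neuron marker of highest mean level, had a difference of 1.15, and the sum leans on such bright genes. Dbh and Stmn2, the next by level, had differences of -0.22 and -1.06. Smooth muscle markers, the cells that carry the transgene, gave 0 calls of 12 with a median of 0.00. Endothelial markers gave 2 of 12 called higher, against 3.11% of all genes, with a median difference of 0.55. Their summed level overlapped between the groups, at 9.91 to 11.13 in NTG and 10.44 to 10.72 in SMC-IRF9-TG. Vwf, Tek and Esam, the brightest of them, had differences of -0.81, -0.03 and 0.25. Skeletal muscle and adipocyte markers gave 0 calls of 12 and 0 of 7. The part of these lists in the receptor differences was not tested.

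The genes whose pattern over the 6 arrays was most like Bdnf (1422168_a_at) were Dock1, Ccl9, Slc36a1, Arhgef6 and Lamb1, with Pearson r from 0.996 to 0.998. The measure describes 6 points that fall into the same 2 groups, so it has no p. Their differences were of unlike size: 0.45 for Dock1, 0.52 for Arhgef6, 1.56 for Slc36a1, 2.98 for the chemokine Ccl9 and 3.68 for the laminin chain Lamb1. Ccl9 read 3.68, 3.71 and 3.75 in NTG against 7.31, 6.22 and 6.55 in SMC-IRF9-TG pools, so SMC-IRF9-TG pool 1 was the highest and pool 2 the lowest of that group in both genes.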

How the data were processed

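RNA of pooled injured carotid arteries was hybridized to 1 Affymetrix array per pool, and the 3 NTG and 3 SMC-IRF9-TG pools were grouped by the genotype in the labels. Per the submitters' processing notes, the authors ran RMA in Affymetrix Expression Console, which gave the deposited log2 levels, with versions not given in the sources used here. Low signals are compressed by RMA and detection was not checked, so dim levels may be background. The number of arrays limits the precision.

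After removal of 64 control probe sets, 45037 of 45101 entered limma 3.58.1 (lmFit and eBayes, 2-sided, R 4.3.3) with no filter, with Benjamini-Hochberg adjustment over all of them and a threshold of 0.05. The methods' t-test, given for the whole paper and not for the arrays, was an alternative. A gene was named only from a probe set with 1 gene in the annotation (34945 probe sets). The fit was tested on simulated data, and tables and figures were made in Python 3.11.15.

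The members, gene lists and tests were chosen with earlier results of these data known. Named are all members, in each pathway list up to 4 called genes by size or else the 2 of highest level, up to 3 marker genes of highest level per list, and the 5 genes most correlated with Bdnf, though not each is printed. The alternatives appear in the closing section.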

Additional observations from a re-analysis of the deposited data

How the results depend on the processing

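The larger Bdnf difference kept its direction under all 15 alternatives, from 2.50 to 2.87, and was called in 13 of them; its adjusted p was 0.0952 with the methods' t-test and 0.0654 with a term for SMC-IRF9-TG pools 1 and 2. The smaller Bdnf difference kept its direction and was called in 7 of 15, with adjusted p from 0.0202 to 0.435. No other member was called under any of these alternatives. The median member difference ran from -0.31 to -0.15, and from -0.29 to -0.09 with 1 array left out; under median centring it was -0.16, with -0.03 over all probe sets.

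Of member probe sets, 0 were called with the methods' t-test, 1 with the replicate block, 1 with a term for NTG pools 1 and 2, 0 with a term for SMC-IRF9-TG pools 1 and 2, 1 at an adjusted p under 0.01, and 1 to 2 with 1 array left out. Of the pathway genes, 5 were called by the mean of all probe sets and 5 under median centring, 0 with the t-test, 0 with either term, and 0 to 5 with 1 array left out (0 without SMC-IRF9-TG pool 2, 5 without NTG pool 3). Of these calls 1 was lower, Sorl1, without NTG pool 3, under quantile normalization and with array weights. Of all probe sets, 1237 were called in the reported fit, 1 with the t-test, 700 under quantile normalization (547 higher and 153 lower), 730 with the replicate block, 192 with the NTG term, 55 with the SMC-IRF9-TG term, and 320 to 1851 with 1 array left out (320 without SMC-IRF9-TG pool 2, 1851 without NTG pool 3, with 1268 higher and 583 lower). Median centring gave 1497 higher and 111 lower, against 1069 and 168. The cause of these changes was not tested; each term leaves 1 pool of its group to carry the difference. For pairing, the deviations of the pools from their own group's mean were correlated over all probe sets. Same-numbered pools had -0.15, -0.001 and 0.027, and differently numbered ones -0.125 to 0.127. These values give no sign that the numbers pair the samples, but 3 pools per group cannot settle it. The alternatives not named here (a filter on dim probe sets, a trended robust variance, array weights and an adjusted p of 0.1) kept each total number of calls within 1.5 times of the reported one. Signal limits the dim members: 7 of the 25 probe sets (1 of Ntf5, 4 of Ntrk2 and 2 of Ngfr) had both group means under the lower quartile.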
